A study of Mus musculus with 9 samples.

Results

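Mouse embryonic cortical neurons that had received a Na+ ion-charged nanostructure (Na+ ICN) were compared, across all genes with enough counts, with neurons that had received a non-charged peptide amphiphile (PA). The members were the 3 Na+ ICN and the 3 PA libraries, 6 of the 9 in the series; the remaining 3 had a K+ ion-charged nanostructure (K+ ICN) and enter the shared estimate of spread between replicates and a direct test against Na+ ICN. Cells had settled overnight before 80 µl of material was laid on them, from a 5 mM stock and at 200 µM, with 50% of the medium renewed after 48 h and harvest at 72 h. All 9 cultures therefore carried a peptide material. The labels give neither the strain, nor the age of the embryos, nor the purity of the cultures. They do not tie replicates to separate animals either, and the p-values rest on the spread between samples, which may be technical.

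Peptide amphiphiles are short peptides joined to a lipid tail, which assemble in water into fibres that cells can sit on. Cultures of embryonic cortex hold mostly glutamatergic projection neurons, with a minority of GABAergic interneurons and with progenitors and astrocytes that go on dividing unless they are suppressed. Such neurons spend the days after plating growing processes, choosing contacts through adhesion molecules and building synapses. The study asked which molecular cascades ion-charged fibres set off in these cells.

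Polyadenylated RNA was read as gene counts, with 17924988 to 22906950 counts a library over the 9 libraries. Levels are given below as CPM (counts scaled to library size, with edgeR's TMM correction for composition) and can be compared between libraries but not between genes, which differ in length. Transcripts of the mitochondrial genome took 4.15 to 4.33% of the counts in PA and 5.24 to 5.44% in Na+ ICN libraries. Markers of the labelled cell type were high in every library. The 10 neuronal markers summed to 8700 to 8827 CPM in PA and 8548 to 8766 CPM with Na+ ICN, while endothelial markers stayed between 10.3 and 14.9 CPM, with 6 of 7 under 1 CPM. On the second principal component, which held 14.8% of the variance, Na+ ICN replicate 3 stood at −9.70, against −23.6 and −21.9 for the other two.

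Na+ ICN changed many genes, each by a small amount. Of 15183 genes tested, 1648 (10.9%) passed an adjusted p of 0.05 in edgeR's quasi-likelihood test, 855 of them higher (5.63%) and 793 lower (5.22%) with Na+ ICN. The share called grew with level. In the lowest quintile of tested genes by mean CPM 1.71% were higher and 0.95% lower, and in the highest 9.61% and 13.5%. The gene lists below were not matched for level, so a list of highly expressed genes can pass the shares over all genes for that reason alone. The median called gene differed 1.19-fold (1.23-fold among the higher and 1.15-fold among the lower), and the spread between replicates corresponded to a coefficient of variation of 5.67%. Changes of at least 1.5-fold were found for 151 higher and 61 lower genes, and of at least 2-fold for 49 and 33. Tested against a minimum change of 1.2-fold, 92 genes passed, 71 higher and 21 lower. The count fell to 1079 without PA replicate 3 and to 1089 without Na+ ICN replicate 2, and upper-quartile scaling split the calls as 1042 higher and 552 lower.

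**Figure D1:**
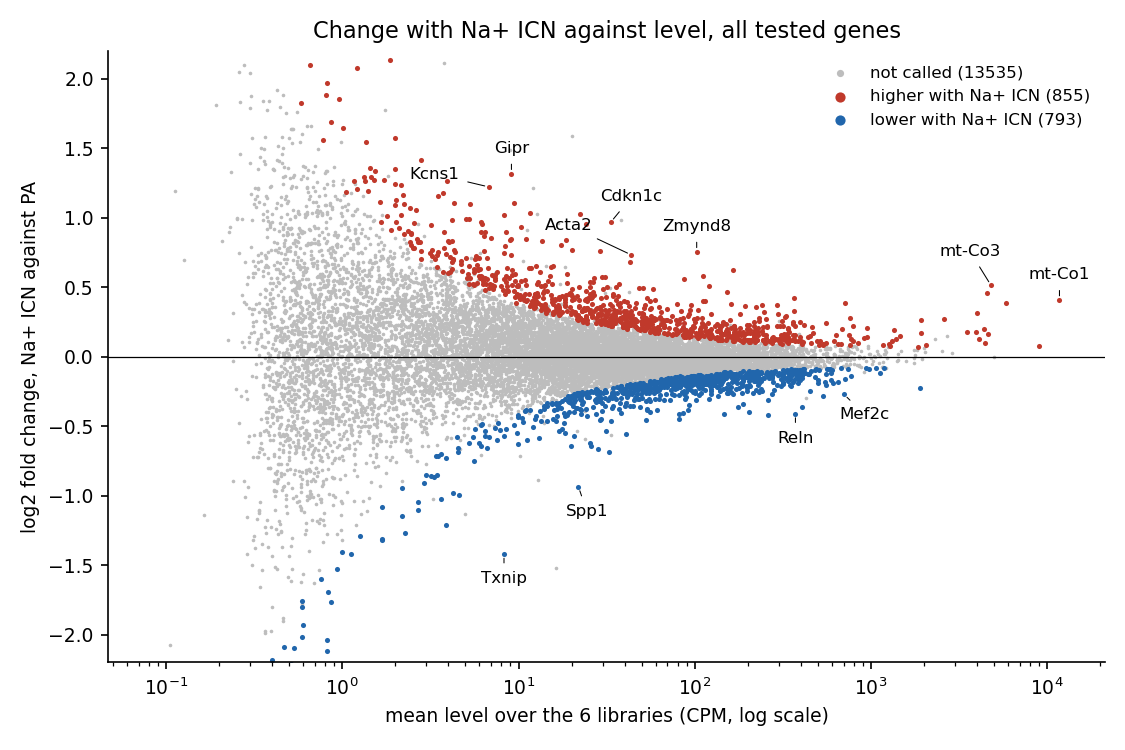
Log2 fold change of Na+ ICN against PA (vertical axis) against the mean level over the 6 libraries in CPM (horizontal axis, log scale) for every tested gene, except 22 beyond 2.2 log2 units. The 855 genes called higher and the 793 called lower lie mostly close to 0, and mt-Co1 and mt-Co3 stand out at the highest levels.

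Among the genes with the smallest p, a pair of nuclear regulators rose with hardly any spread between libraries. Zmynd8, a reader of acetylated and methylated histones, measured 74.9, 78.9 and 75.2 CPM in the 3 PA libraries and 130.2, 127 and 129 CPM with Na+ ICN (log2 fold change 0.75, SE 0.045, edgeR adjusted p = 7.01e-18). Zfp532, a zinc finger protein found in complexes with it, went from 131, 128 and 128 CPM to 197, 204 and 198 CPM (log2 fold change 0.62, SE 0.037, edgeR adjusted p = 5.75e-18). For both genes every Na+ ICN library lay above every PA library by far more than the replicates differed among themselves. Groups did not overlap for 4052 of the tested genes (26.7%), of which 1590 were called. Genes named for their p, fold or CPM change were admitted only where groups did not overlap. Their separation, here and below, follows from that choice. Genes with the smallest p on the falling side included Reln, Tenm1, Rian, Fat3, Mef2c, Syt1, Spp1, Scube1 and Gad1. They were a mixed set, with the non-coding RNA Rian and the transcription factor Mef2c among them.

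**Figure D2:**
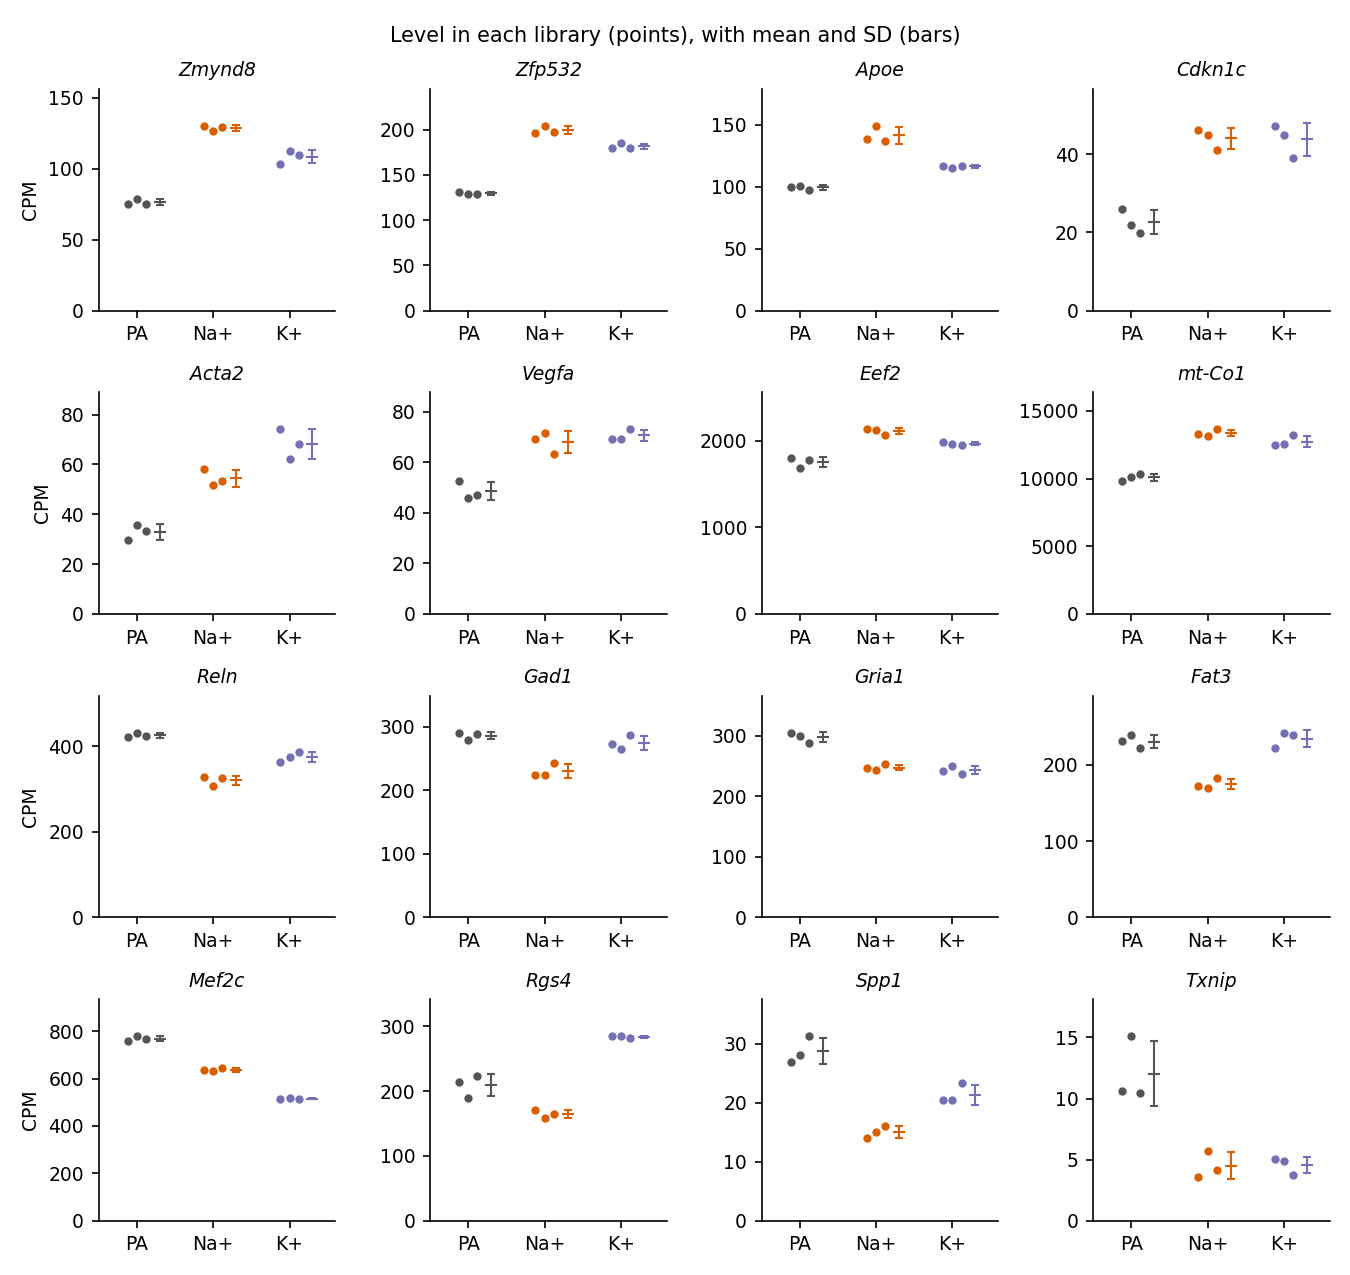
Level in CPM (vertical axis, from 0) of 16 named genes in each library (points), with the mean and SD of the 3 libraries (bars), for PA, Na+ ICN and K+ ICN. In all 16 panels the Na+ ICN libraries lie wholly above or wholly below the PA libraries, which was required of genes named for p, fold or CPM change.

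The largest folds were in genes of low level. Gipr, a receptor for the gut hormone GIP, stood at 7.36, 3.93 and 4.42 CPM in PA and 13.5, 11.5 and 13.99 CPM with Na+ ICN (log2 fold change 1.32, SE 0.16, edgeR adjusted p = 2.79e-07). Kcns1, a silent potassium channel subunit that modifies others, rose from 3.48, 4.68 and 4.07 CPM to 9.36, 9.48 and 9.64 CPM, and Slc29a1, a carrier of nucleosides such as adenosine, from 6.44, 5.81 and 5.68 CPM to 12.7, 12.1 and 13.7 CPM. In each of these genes the lowest Na+ ICN library lay above the highest PA library, as the rule for naming them required. Bgn, a matrix proteoglycan, Rasip1, a Ras-interacting protein known from blood vessels, Myl9, a myosin light chain, Neat1, the scaffold RNA of paraspeckles, and Tcfl5, a transcription factor, rose between 1.99- and 2.14-fold. The deepest falls by fold among named genes included Myh8, a developmental myosin heavy chain (log2 -0.75, SE 0.19), and Lrguk (log2 -0.65, SE 0.17), whose calls were lost without Na+ ICN replicate 2 (edgeR adjusted p = 0.102) and without PA replicate 2 (edgeR adjusted p = 0.0529) respectively, and the zinc finger genes Zfp965 (log2 -0.69, SE 0.097) and Zfhx2 (log2 -0.65, SE 0.086).

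In counts rather than folds, the mitochondrial genome led. The genes that rose gained 25194 CPM in all, of which the mitochondrial genome made up 10753 CPM. Mt-Co1, a subunit of cytochrome c oxidase, went from 9785, 10139 and 10306 CPM to 13278, 13174 and 13634 CPM (log2 fold change 0.41, SE 0.022, edgeR adjusted p = 5.63e-18), the largest gain of a named gene, 3285 CPM. That shift exceeded the replicate spread many times over. Losses were smaller, 132 CPM for Mef2c, 105 CPM for Reln, 104 CPM for Syt1 and 101 CPM for Rian, genes described below. CPM are shares of a library, so a gain of this size lowers the shares of other genes unless the scaling takes it out. After TMM scaling the median log2 fold change of all tested genes was 0.0036, but it went down with level. From the lowest to the highest quintile of mean CPM it was 0.086, 0.068, 0.010, −0.014 and −0.022. How far the scaling took out the mitochondrial gain was not tested.

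Mitochondrial DNA encodes core subunits of the respiratory chain, read as a single long transcript from each strand and cut into messenger RNAs. Of its 13 messenger RNAs, 11 rose and none fell, with a median log2 fold change of 0.35. The rise was uneven between neighbours. Among cytochrome c oxidase and ATP synthase members, mt-Co3 rose by 0.51, mt-Co2 by 0.46, mt-Co1 by 0.41 and mt-Atp6 by 0.39 on the log2 scale. Complex I members ranged more widely, with mt-Nd3 at 0.42, mt-Nd1 at 0.32, mt-Nd2 at 0.27 and mt-Nd4l at 0.11, and mt-Cytb of complex III had 0.20. Mt-Nd5 (log2 fold change 0.15, SE 0.057, edgeR adjusted p = 0.174) and the light-strand gene mt-Nd6 (log2 fold change 0.35, SE 0.19, edgeR adjusted p = 0.328) did not pass. The nuclear genes for mitochondrial ribosomal proteins did not follow: of 78, none rose and 2 fell, Mrps26 and Mrps31, and each lost its call without PA replicate 2, PA replicate 3 or Na+ ICN replicate 3.

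Cytosolic ribosomal proteins and elongation factors are made from messages that share a pyrimidine tract at their start, through which mTOR sets their translation. Of 79 ribosomal protein genes 45 rose (57.0%) and none fell, with a median log2 fold change of 0.14. Rpl12, of the stalk base of the large subunit, measured 198, 192 and 197 CPM in PA and 249, 253 and 249 CPM with Na+ ICN (log2 fold change 0.36, SE 0.033, edgeR adjusted p = 2.78e-11). Ribosomal protein genes have many processed pseudogenes, so their counts are uncertain where reads could be shared. Of 46 translation factors 13 rose and 1, the initiation factor Eif1ax, fell, a call lost without PA replicate 2 or 3 or Na+ ICN replicate 1 or 2. Eef2, the ribosome translocase, went from 1796, 1683 and 1777 CPM to 2132, 2123 and 2068 CPM (log2 fold change 0.27, SE 0.025, edgeR adjusted p = 2.59e-11), Eef1a1, which brings transfer RNAs to the ribosome, from 3736, 3672 and 3739.9 CPM to 4267, 4143 and 4216 CPM (log2 fold change 0.18, SE 0.021, edgeR adjusted p = 2.51e-08), and Tpt1, a growth-linked translation-associated protein, from 689.7, 677 and 691 CPM to 838, 852 and 802 CPM. The groups were fully apart for all 3.

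Genes of amino acid supply under the transcription factor ATF4 rose as well. Of 40 tested, 10 rose and none fell, with a median log2 fold change of 0.11. Atf5, a transcription factor of this response, stood at 94.2, 89.5 and 84.6 CPM in PA and 133, 138 and 130.3 CPM with Na+ ICN (log2 fold change 0.58, SE 0.048, edgeR adjusted p = 6.63e-12). The serine synthesis enzyme Phgdh rose from 45.7, 46.7 and 44.8 CPM to 61.9, 59.7 and 62.3 CPM, and the arginine carrier Slc7a3 from 20.2, 21.95 and 20.5 CPM to 31.3, 27.4 and 32.1 CPM. All 3 had groups that did not overlap. Shmt2 of mitochondrial one-carbon metabolism (log2 0.30, SE 0.06), the proline enzyme Pycr1 (log2 0.58, SE 0.12), the glutathione-degrading Chac1 (log2 0.52, SE 0.12), the pseudokinase Trib3 (log2 0.89, SE 0.27), the mTOR inhibitor Ddit4 (log2 0.28, SE 0.052), Psat1 (log2 0.13, SE 0.039) and Atf4 itself (log2 0.12, SE 0.035) made up the 10. Of 43 heat shock proteins and chaperones 3 rose (6.98%) and 5 fell (11.6%), with a median log2 fold change of −0.0024. Over all genes tested 5.63% rose and 5.22% fell. Among those that fell, Hspa5, the endoplasmic reticulum chaperone also called BiP, went from 336, 333 and 345 CPM to 309, 286 and 291 CPM (log2 fold change -0.19, SE 0.032, edgeR adjusted p = 2.16e-05), and Hsp90b1 (log2 -0.12, SE 0.031) and Dnajb9 (log2 -0.27, SE 0.085) fell. Hsp90b1 did not pass without Na+ ICN replicate 2 (edgeR adjusted p = 0.0573). Over this list 6 rose under upper-quartile scaling, and 3 fell without Na+ ICN replicate 2.

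Genes of the actin cytoskeleton rose together. Serum response factor (SRF) binds a short element called the CArG box and, with coactivators of the MRTF family that sense free actin, drives genes of actin filaments and contractility. Of 39 tested genes of this list 22 rose (56.4%) and none fell, with a median log2 fold change of 0.30, and 19 to 22 rose when any single library was left out. Acta2, smooth muscle actin, measured 29.5, 35.8 and 33.1 CPM in PA and 58.3, 51.6 and 53.5 CPM with Na+ ICN (log2 fold change 0.73, SE 0.072, edgeR adjusted p = 4.1e-10). Tagln, an actin cross-linker, rose from 16.2, 16.7 and 16.6 CPM to 33.9, 28.99 and 33.1 CPM (log2 fold change 0.96, SE 0.093, edgeR adjusted p = 2.59e-10), and Myl9 from 4.65, 6.29 and 5.51 CPM to 10.998, 10.1 and 12.2 CPM (log2 fold change 1.02, SE 0.15, edgeR adjusted p = 1.34e-06). In each the 3 Na+ ICN libraries lay far above every PA library.

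The list also rose among genes that are not confined to muscle. Flna, a filamin that links actin to membranes, went from 266, 258 and 241 CPM to 319, 339 and 330.4 CPM (log2 fold change 0.37, SE 0.034, edgeR adjusted p = 2.31e-11), and the adaptor Tgfb1i1 from 15.8, 14.8 and 14.1 CPM to 23.5, 24.8 and 27.5 CPM. Rises were also found for cytoplasmic γ-actin Actg1 (log2 0.18, SE 0.022), the calponins Cnn2 (log2 0.80, SE 0.095) and Cnn3 (log2 0.23, SE 0.035), tropomyosin Tpm4 (log2 0.37, SE 0.047), non-muscle myosin Myh9 (log2 0.26, SE 0.053), vinculin Vcl (log2 0.30, SE 0.073) and Srf itself (log2 0.21, SE 0.062). The matricellular proteins Ccn1 (log2 0.37, SE 0.098) and Ccn2 (log2 0.98, SE 0.19), targets of the same pathway, were among the 22. The coactivators Mrtfa (log2 fold change -0.13, SE 0.066, edgeR adjusted p = 0.228) and Mrtfb (log2 fold change -0.14, SE 0.062, edgeR adjusted p = 0.152) did not pass, nor did β-actin Actb (log2 fold change 0.12, SE 0.037, edgeR adjusted p = 0.0507). Markers of mural and smooth muscle cells moved with this list, and 3 of the 7, Acta2, Tagln and Myl9, belong to both. Their summed level was 73.7 to 83.7 CPM in PA and 122 to 131 CPM with Na+ ICN, 3 of 7 passed, and Cnn1 lay under 1 CPM. In bulk RNA more cells of a type and more RNA per cell cannot be told apart, and the part of such cells in this result was not tested.

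The promoters of 5 genes of this list that rose are shown because they hold a CArG box. Each window runs from 250 bases before to 50 bases after the start of the gene (RefSeq, build GRCm38.p6) and is written in the direction of transcription, with the CArG box in capitals. Myl9 is at chr2:156775214-156775513 (+ strand), Cnn2 at chr10:79988350-79988649 (+), Vcl at chr14:20929148-20929447 (+), Srf at chr17:46556113-46556412 (− strand) and Actg1 at chr11:120348446-120348745 (−).
Myl9: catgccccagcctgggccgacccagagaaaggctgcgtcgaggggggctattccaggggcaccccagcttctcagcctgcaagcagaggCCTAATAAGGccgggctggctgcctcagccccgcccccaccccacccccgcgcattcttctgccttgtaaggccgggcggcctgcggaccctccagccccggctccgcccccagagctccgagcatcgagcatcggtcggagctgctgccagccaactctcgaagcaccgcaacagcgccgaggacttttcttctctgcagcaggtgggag
Cnn2: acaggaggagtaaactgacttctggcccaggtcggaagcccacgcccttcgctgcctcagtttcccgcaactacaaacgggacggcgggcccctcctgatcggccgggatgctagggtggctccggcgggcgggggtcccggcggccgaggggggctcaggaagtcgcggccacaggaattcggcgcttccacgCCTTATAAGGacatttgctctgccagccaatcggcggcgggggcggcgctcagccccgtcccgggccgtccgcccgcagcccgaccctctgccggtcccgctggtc
Vcl: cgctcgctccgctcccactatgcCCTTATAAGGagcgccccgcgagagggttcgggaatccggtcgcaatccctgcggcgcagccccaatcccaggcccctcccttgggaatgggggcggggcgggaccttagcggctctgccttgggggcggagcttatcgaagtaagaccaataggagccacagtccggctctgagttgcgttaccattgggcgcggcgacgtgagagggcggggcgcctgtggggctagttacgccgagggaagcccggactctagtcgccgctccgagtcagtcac
Srf: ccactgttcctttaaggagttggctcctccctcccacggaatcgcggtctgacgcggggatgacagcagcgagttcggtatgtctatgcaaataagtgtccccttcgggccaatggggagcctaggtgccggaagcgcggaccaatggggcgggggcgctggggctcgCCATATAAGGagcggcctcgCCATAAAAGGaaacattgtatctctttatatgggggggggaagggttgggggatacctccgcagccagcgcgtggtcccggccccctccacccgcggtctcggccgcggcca
Actg1: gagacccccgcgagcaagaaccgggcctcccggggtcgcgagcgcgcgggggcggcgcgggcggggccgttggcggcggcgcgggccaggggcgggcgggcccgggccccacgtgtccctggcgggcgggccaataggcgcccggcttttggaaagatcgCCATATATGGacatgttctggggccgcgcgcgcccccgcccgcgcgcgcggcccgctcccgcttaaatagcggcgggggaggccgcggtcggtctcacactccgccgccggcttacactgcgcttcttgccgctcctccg
The box began 161 bases before the start in Myl9, 56 in Cnn2, 227 in Vcl and 90 in Actg1, and Srf held a pair, 82 and 62 bases before it. Of the 22 genes that rose 17 had a window and 5 of those held a box; of the 17 not called 15 had a window and 2 held a box, Fhl2 and Myl6. Over all 32851 windows, searched on both strands, 1.63% held a box, and none of the 5 windows held a match to the carbohydrate response element described below. A match of letters is a description and not evidence of binding.

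**Figure D3:**
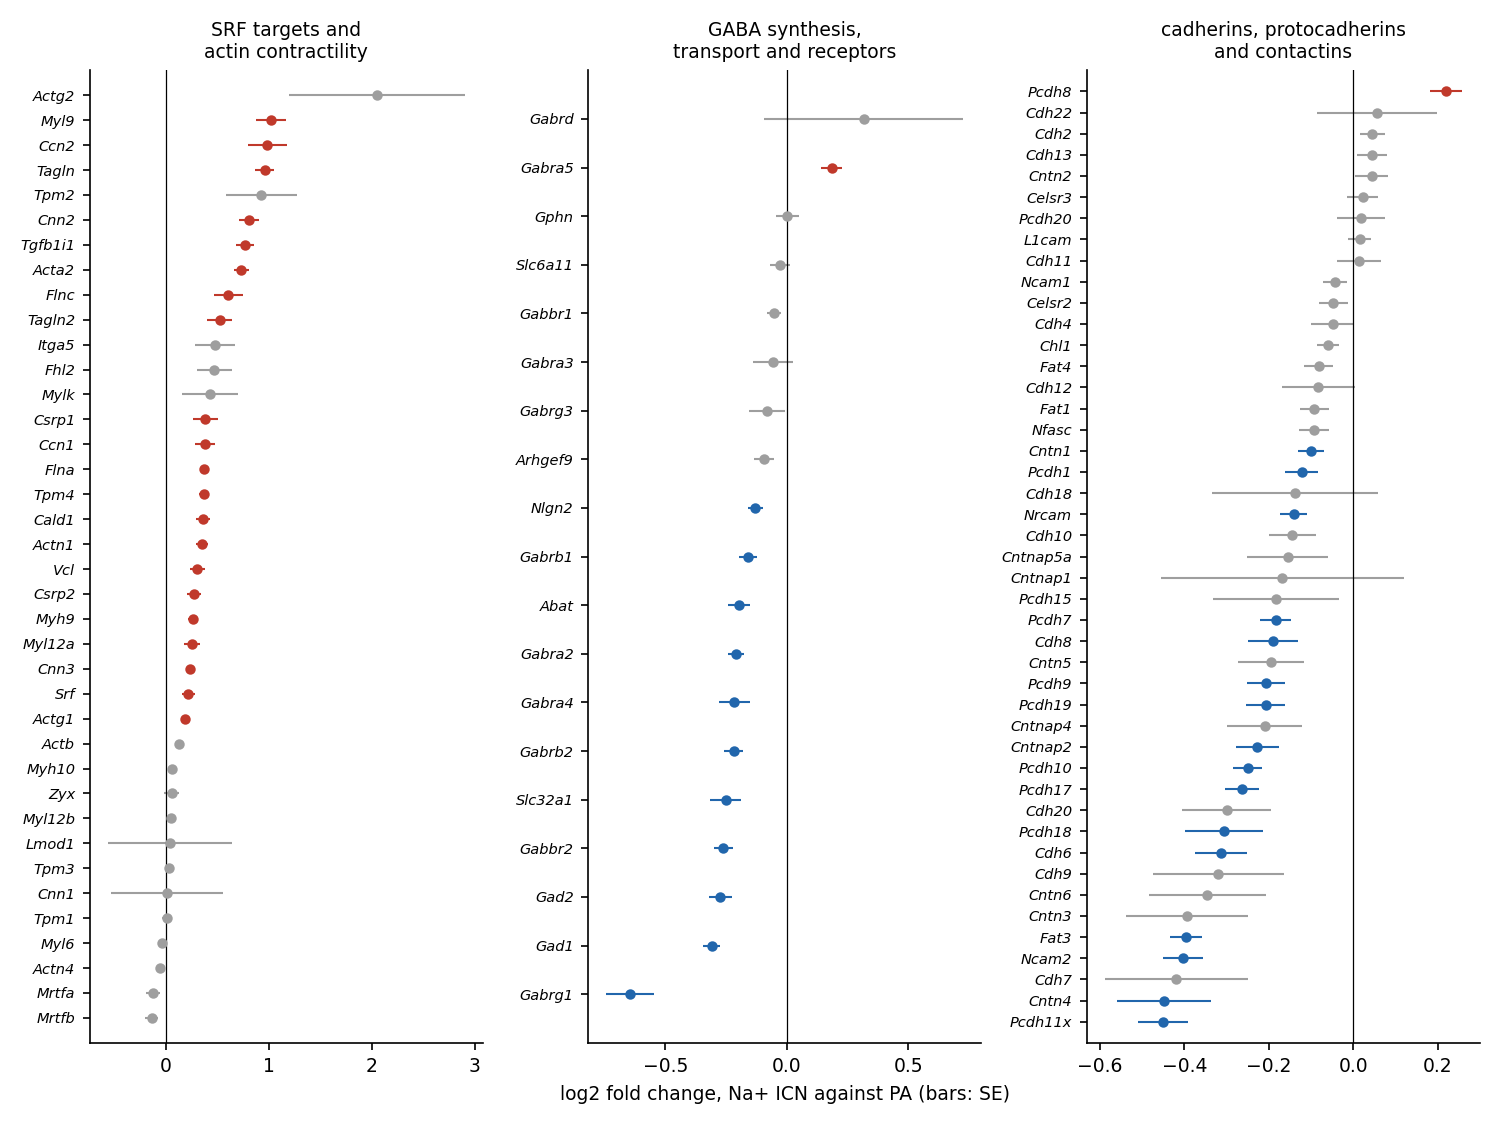
Log2 fold change of Na+ ICN against PA (horizontal axis, points) with its SE (bars) for tested genes of 3 lists, with called genes in colour and others in grey. Of the genes plotted, 21 of 38 are higher on the actin list, 11 of 19 are lower and 1 higher on the GABA list, and 16 of 45 are lower and 1 higher on the adhesion list.

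Extracellular matrix genes rose more often than they fell, 19 against 4 of 56 tested (median log2 fold change 0.21). The rise took in fibrillar collagens Col1a1 (log2 0.73, SE 0.14), Col1a2 (log2 0.71, SE 0.17) and Col3a1 (log2 0.57, SE 0.15), basement membrane chains Col4a1 (log2 0.38, SE 0.065), Col4a2 (log2 0.27, SE 0.07), Lama5 (log2 0.59, SE 0.14), Lamb1 and Lamb2, the crosslinker Lox and the collagenase activator Mmp14. Without PA replicate 3 the number that rose was 12. Spp1, osteopontin, went the opposite way, from 26.9, 28.1 and 31.3 CPM in PA to 14.01, 14.97 and 16.1 CPM with Na+ ICN (log2 fold change -0.94, SE 0.092, edgeR adjusted p = 1.44e-10), and Postn (log2 -0.65, SE 0.18), the protease inhibitor Timp2 (log2 -0.20, SE 0.03) and the perineuronal proteoglycan Ncan (log2 -0.13, SE 0.03) also fell. Fibroblast and meningeal markers summed to 67.6 to 70.9 CPM in PA and 65.8 to 72.6 CPM with Na+ ICN, ranges that overlap. The total hides opposite moves. Pdgfra, the highest of the 7 and also a marker of oligodendrocyte precursors, fell from 35.3, 39.3 and 36.3 CPM to 23.6, 25.4 and 27.3 CPM. Of the 7, 3 (the fibrillar collagens) rose, Igf2 and Dcn overlapped between the groups, and Lum was under 1 CPM. The part of such cells in the collagen result was not tested.

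Genes of astrocytes, the glia that feed neurons and clear their transmitters, rose together. Of 28 tested 15 rose (53.6%) and none fell (median log2 fold change 0.25). Apoe, the main lipid carrier of brain, measured 99.9, 101 and 97.2 CPM in PA and 138, 149 and 137 CPM with Na+ ICN (log2 fold change 0.51, SE 0.042, edgeR adjusted p = 8.88e-13). Sparcl1, a secreted protein that acts on synapses, rose from 123, 133 and 131 CPM to 177, 180.5 and 177 CPM, and Gfap, the astrocyte intermediate filament, from 12.4, 12.2 and 12.1 CPM to 15.5, 17.3 and 17.9 CPM (log2 fold change 0.47, SE 0.1, edgeR adjusted p = 0.00158). Groups were apart for all 3. The glutamate carrier Slc1a3 (log2 0.19, SE 0.035), connexin 43 Gja1 (log2 0.29, SE 0.074), Aldoc (log2 0.27, SE 0.062), Aldh1l1 (log2 0.23, SE 0.056) and the glutamine synthetase Glul (log2 0.12, SE 0.035) moved by less. The 12 astrocyte markers are not independent of this list, with which they share at least Apoe, Clu, Sparcl1, Gfap, Slc1a3, Gja1, Aldoc and Aldh1l1. They summed to 833 to 863 CPM in PA and 998 to 1053 CPM with Na+ ICN, with 8 of 12 higher and S100b under 1 CPM. Cell number and RNA per cell cannot be told apart here.

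Cell cycle genes and some of the progenitor markers shifted upward with the glial genes. The 8 progenitor and radial glia markers summed to 800.4 to 834 CPM in PA and 912 to 956 CPM with Na+ ICN, and 3 of them passed, Vim (log2 0.30, SE 0.034), Nes (log2 0.22, SE 0.042) and Fabp7 (log2 0.11, SE 0.031). Sox2 did not pass, though its groups were apart (51.9, 55.8 and 52.9 CPM in PA, 57.8, 61.5 and 59.6 CPM with Na+ ICN). Pax6, Hes1, Hes5 and Eomes did not pass and their ranges overlapped. Of 44 cell cycle genes 10 rose and none fell (median log2 fold change 0.17), and they held both brakes and drivers of division. Cdkn1c, the inhibitor p57, went from 25.9, 22.005 and 19.9 CPM to 46.2, 45.02 and 41.1 CPM (log2 fold change 0.97, SE 0.085, edgeR adjusted p = 4.11e-11), and cyclin D2, Ccnd2, from 143, 142 and 135 CPM to 181, 184 and 183 CPM (log2 fold change 0.38, SE 0.037, edgeR adjusted p = 9.1e-11). For both the groups were apart, whereas those of the proliferation gene Top2a overlapped (71.9, 80.8 and 70.6 CPM against 78.95, 92.5 and 91.8 CPM). Cdkn1a (log2 0.28, SE 0.069), Mki67 (log2 0.18, SE 0.048), Cdk1 (log2 0.31, SE 0.1) and Cdc20 (log2 0.39, SE 0.12) were also called. The number that rose was 6 without PA replicate 1, 4 without PA replicate 3 and 5 without Na+ ICN replicate 2. Among Wnt, Notch, BMP and TGF-β genes 8 of 60 rose and none fell, led by the BMP-induced Id4 (log2 0.30, SE 0.046) and the activin subunit Inhbb (log2 0.41, SE 0.091); 5 rose without PA replicate 1 or 2, and 4 without PA replicate 3 or Na+ ICN replicate 2.

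Oligodendrocyte lineage markers split. Mbp, which encodes a myelin protein, rose (log2 0.53, SE 0.082), while Pdgfra, the receptor that marks their precursors, went from 35.3, 39.3 and 36.3 CPM to 23.6, 25.4 and 27.3 CPM (log2 fold change -0.54, SE 0.083, edgeR adjusted p = 7.05e-06). The 10 markers summed to 169 to 187 CPM in PA and 157 to 175 CPM with Na+ ICN, ranges that overlap, with Mog at 0 in all 6 libraries and Mag under 1 CPM. Microglial markers summed to 23.9 to 28.8 CPM and 23.7 to 31.2 CPM, none of the 8 tested passed, and P2ry12, Tmem119 and Trem2 were under 1 CPM. Red blood cell genes summed to 0.70 to 1.02 CPM in PA and 1.52 to 1.59 CPM with Na+ ICN, ranges that do not overlap, and the 1 such gene with enough counts to be tested did not pass.

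Cholesterol and fatty acid synthesis rose slightly. Of 36 genes 11 rose (30.6%) and none fell, but by a median log2 fold change over the list of 0.066. Hmgcs1, which starts the mevalonate pathway, measured 1787, 1807 and 1849 CPM in PA and 1999, 2045 and 2089 CPM with Na+ ICN (log2 fold change 0.17, SE 0.024, edgeR adjusted p = 9.07e-07), and the groups did not overlap. Others called were Acly (log2 0.14, SE 0.029), Fdps (log2 0.15, SE 0.033), Sqle (log2 0.13, SE 0.029), Fdft1, Cyp51, Scd2 and the regulator Srebf1 (log2 0.25, SE 0.066). The count was 6 without PA replicate 2 and 7 without Na+ ICN replicate 2. Among 30 apolipoproteins and lipid carriers 6 rose, Clu (log2 0.40, SE 0.058) and Pltp (log2 0.75, SE 0.19) among them, and 2 fell, the receptor Lrp1 (log2 -0.17, SE 0.031) and Abca3; 3 rose without PA replicate 1 or without Na+ ICN replicate 2, and 1 fell without either of these or Na+ ICN replicate 3.

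Genes of the GABA system had the highest share of falls among the 39 lists examined, which were chosen with earlier results of these data known. GABA, the main inhibitory transmitter of cortex, is made by Gad1 and Gad2, packed into vesicles by Slc32a1 and sensed by receptors built from the Gabr subunits. Of 23 genes of this list 15 fell (65.2%) and 1 rose, with a median log2 fold change of −0.16, and 12 to 14 fell when any single library was left out. Gad1 measured 291, 279.8 and 288 CPM in PA and 224, 225 and 243 CPM with Na+ ICN (log2 fold change -0.31, SE 0.035, edgeR adjusted p = 7.37e-09), and Gad2 88.7, 92.1 and 86.7 CPM and 73.2, 73.7 and 74.3 CPM (log2 fold change -0.27, SE 0.048, edgeR adjusted p = 6.52e-05). Both had the highest Na+ ICN library well under the lowest PA library. Slc32a1 (log2 -0.25, SE 0.064) and the GABA-degrading enzyme Abat (log2 -0.20, SE 0.046) fell with them.

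Receptor subunits fell too, including ones that projection neurons use. Gabrg1 went from 22.4, 24.7 and 25.5 CPM to 13.8, 16.8 and 15.95 CPM (log2 fold change -0.65, SE 0.099, edgeR adjusted p = 5.36e-06), the abundant Gabra2 from 313, 342 and 341 CPM to 285, 286 and 289.6 CPM (log2 fold change -0.21, SE 0.033, edgeR adjusted p = 1.08e-05), and the metabotropic Gabbr2 from 169, 172 and 161 CPM to 138, 138 and 142 CPM (log2 fold change -0.26, SE 0.039, edgeR adjusted p = 2.66e-06). In none of the 3 did the groups overlap. Gabra4, Gabrb1, Gabrb2 and the inhibitory synapse adhesion protein Nlgn2 fell, with log2 fold changes between -0.13 and -0.22, whereas Gabra5, the subunit of extrasynaptic receptors, rose (log2 fold change 0.18, SE 0.043, edgeR adjusted p = 0.00259).

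Genes that define interneurons were mixed beyond the GABA genes they share. Of 32 tested 8 fell and 1, the transcription factor Maf, rose (median log2 fold change −0.047); none rose without PA replicate 2, PA replicate 3 or Na+ ICN replicate 3, and 4 rose under upper-quartile scaling. Reln, the secreted guidance protein of Cajal-Retzius cells and interneurons, went from 421, 431 and 422 CPM to 327, 308 and 325 CPM (log2 fold change -0.41, SE 0.031, edgeR adjusted p = 6.15e-14), and Npy, a peptide of a subset of interneurons, from 23.6, 20.8 and 20.2 CPM to 17.8, 15.98 and 14.5 CPM (log2 fold change -0.42, SE 0.098, edgeR adjusted p = 0.00274). Every Na+ ICN library was below every PA library for both. The 9 inhibitory neuron markers summed to 795 to 813 CPM in PA and 697 to 716 CPM with Na+ ICN. Of the 9, 4 were lower, Gad1, Gad2, Slc32a1 and Npy. The others, Dlx1, Dlx2, Dlx5, Lhx6 and Sst, did not pass and their ranges overlapped. Sst measured 164, 154 and 166 CPM in PA and 158, 160 and 157 CPM with Na+ ICN. The 7 excitatory markers summed to 1244 to 1267 CPM and 1277 to 1301 CPM with 1, Neurod2, higher. Ndnf, a secreted protein used as a marker of superficial interneurons, also fell (log2 -0.66, SE 0.089). Fewer interneurons and less RNA per interneuron cannot be told apart in these data.

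Glutamate receptors fell in part. Of 24 genes 5 fell and 2 rose (median log2 fold change −0.074). Gria1, an AMPA receptor subunit, measured 305, 299.7 and 288 CPM in PA and 247, 243 and 253 CPM with Na+ ICN (log2 fold change -0.27, SE 0.033, edgeR adjusted p = 6.58e-08), Gria3 45.3, 45.8 and 40.1 CPM and 32.1, 32.9 and 33.7 CPM, and the kainate subunit Grik1 30.5, 35.7 and 34.4 CPM and 26.6, 23.04 and 23.6 CPM. All 3 were lower in every Na+ ICN library. The NMDA subunits Grin2a (log2 -0.29, SE 0.067) and Grin3a (log2 -0.31, SE 0.068) fell and Grin2d, a subunit of early development and of interneurons, rose from 10.8, 10.3 and 10.5 CPM to 15.98, 14.8 and 17.5 CPM (log2 fold change 0.61, SE 0.11, edgeR adjusted p = 9.69e-05).

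Of 54 presynaptic genes 17 fell (31.5%) and 5 rose, with a median log2 fold change of −0.074. Syt1, the calcium sensor of fast release, went from 585, 584 and 587 CPM to 492, 474 and 478 CPM (log2 fold change -0.28, SE 0.028, edgeR adjusted p = 1.11e-10). The active zone scaffolds Bsn (log2 -0.18, SE 0.033) and Pclo (log2 -0.18, SE 0.049), Rims1 and Rims3, and the vesicle proteins Syp (log2 -0.12, SE 0.032) and Vamp2 (log2 -0.088, SE 0.028) fell. Syn3, the synapsin of developing neurons, rose instead, from 207, 213 and 206 CPM to 259, 274 and 275 CPM (log2 fold change 0.37, SE 0.035, edgeR adjusted p = 7.68e-11). The number that fell was 11 without PA replicate 3, without Na+ ICN replicate 2 or under upper-quartile scaling, and the number that rose was 2 without any one of 5 of the 6 libraries. Among neuropeptide and dense-core granule genes 4 of 39 fell, including the granule priming factors Cadps (log2 -0.21, SE 0.034) and Cadps2 (log2 -0.28, SE 0.069, not called without PA replicate 3 at an edgeR adjusted p of 0.0585), and 3 rose, or 1 without PA replicate 1 or 2 and none without Na+ ICN replicate 3. That was 10.3% lower and 7.69% higher, against 5.22% and 5.63% over all genes tested.

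Calcium handling moved in the same direction as the synapse. Of 46 calcium channel, pump and buffer genes 11 fell (23.9%) and 4 rose (median log2 fold change −0.060), 2 of them without PA replicate 2 or Na+ ICN replicate 2. Atp2a2, the pump of the endoplasmic reticulum, went from 576, 577 and 594 CPM to 524, 497 and 521 CPM (log2 fold change -0.18, SE 0.028, edgeR adjusted p = 7.26e-06), and Atp2b2, a pump of the cell membrane, from 231, 235 and 231 CPM to 214, 207 and 197 CPM. The groups were apart for each. The channel subunits Cacna1a (log2 -0.19, SE 0.054), Cacna1b (log2 -0.16, SE 0.035) and Cacna1c (log2 -0.17, SE 0.045), the release channel Ryr2 (log2 -0.30, SE 0.071) and the buffer Calb1 (log2 -0.37, SE 0.075) fell, while the T-type channel Cacna1g (log2 0.26, SE 0.062) rose. Of 47 voltage-gated sodium and potassium channel genes 7 fell (14.9%), Scn1a (log2 -0.31, SE 0.069) among them, and 1, Kcns1, rose. That number depended on single libraries: it was 1 without PA replicate 1, 3 without PA replicate 2 and 4 without Na+ ICN replicate 1 or 2.

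Neuronal adhesion genes were called lower more often than higher, apart from the clustered protocadherins. Cadherins, contactins and non-clustered protocadherins hold neurites together and label which cells they join. Of 45 tested 16 fell (35.6%) and 1 rose (median log2 fold change −0.16), and 14 to 16 fell when any single library was left out. Fat3, a giant cadherin, measured 231, 239 and 222 CPM in PA and 172, 169.7 and 183 CPM with Na+ ICN (log2 fold change -0.40, SE 0.038, edgeR adjusted p = 8.72e-11), Ncam2 93.9, 98.6 and 102 CPM and 75.1, 73.3 and 74.3 CPM (log2 fold change -0.40, SE 0.047, edgeR adjusted p = 1.78e-08), and Pcdh11x 92.5, 93.3 and 94.8 CPM and 72.1, 59.6 and 73.4 CPM (log2 fold change -0.45, SE 0.06, edgeR adjusted p = 4.34e-06). No Na+ ICN library reached the level of any PA library in these 3. Of the protocadherins Pcdh1, Pcdh7, Pcdh9, Pcdh10, Pcdh17, Pcdh18 and Pcdh19 fell and Pcdh8 rose (log2 fold change 0.22, SE 0.038, edgeR adjusted p = 4.86e-05). Tenm1, a teneurin that acts in synaptic partner matching, was outside the list and went from 288, 305 and 295 CPM to 209, 226 and 231 CPM (log2 fold change -0.42, SE 0.035, edgeR adjusted p = 1.15e-12).

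The clustered protocadherins, 3 arrays of surface proteins that give each neuron an identity code, were looked at after their values had been seen. Of 58 tested 23 rose and 3 fell (median log2 fold change 0.25), with 15 to 23 risen when a library was left out, the lowest without Na+ ICN replicate 3. In the β array 12 of 22 rose and none fell, in the γ array 9 of 22 rose and 2 fell, and in the α array 2 of 14 rose and 1 fell. Pcdhga1 measured 36.5, 43.96 and 39.6 CPM in PA and 56.5, 55.3 and 57.4 CPM with Na+ ICN (log2 fold change 0.50, SE 0.065, edgeR adjusted p = 2.56e-07), and Pcdhb17 30.7, 28.2 and 30.2 CPM and 39.01, 39.5 and 47.4 CPM (log2 fold change 0.50, SE 0.077, edgeR adjusted p = 5.36e-06). All 3 that fell, Pcdhac2 (log2 -0.26, SE 0.05), Pcdhgc4 (log2 -0.22, SE 0.07) and Pcdhgc5 (log2 -0.58, SE 0.16), are C-type isoforms, whereas the C-type Pcdhgc3 rose (log2 0.22, SE 0.034); 1 fell without Na+ ICN replicate 1 and 2 without any other single library. Members of the α and γ arrays share constant exons, so the split of reads among them is uncertain; each β gene is a single exon.

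Axon guidance genes also fell. Of 62 tested 17 fell (27.4%) and 1, the netrin Ntn3, rose (median log2 fold change −0.055). Epha7, an ephrin receptor, went from 94.6, 95.2 and 95.6 CPM to 77.7, 77.3 and 82.1 CPM (log2 fold change -0.27, SE 0.048, edgeR adjusted p = 8.61e-05), and Slit2, a repellent ligand, from 96.3, 101 and 98.4 CPM to 85.7, 83.99 and 81.5 CPM (log2 fold change -0.23, SE 0.045, edgeR adjusted p = 0.000268). The replicates of both lay close together and the groups were apart. Semaphorins Sema3a, Sema3e, Sema4f, Sema4g, Sema5a, Sema6a and Sema7a, the ligands Slit1, Slit3 and Efna5 and the receptors Epha5, Epha6, Plxna4, Plxnd1 and Unc5d made up the rest. The count was 10 without PA replicate 1 or without PA replicate 3.

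**Figure D4:**
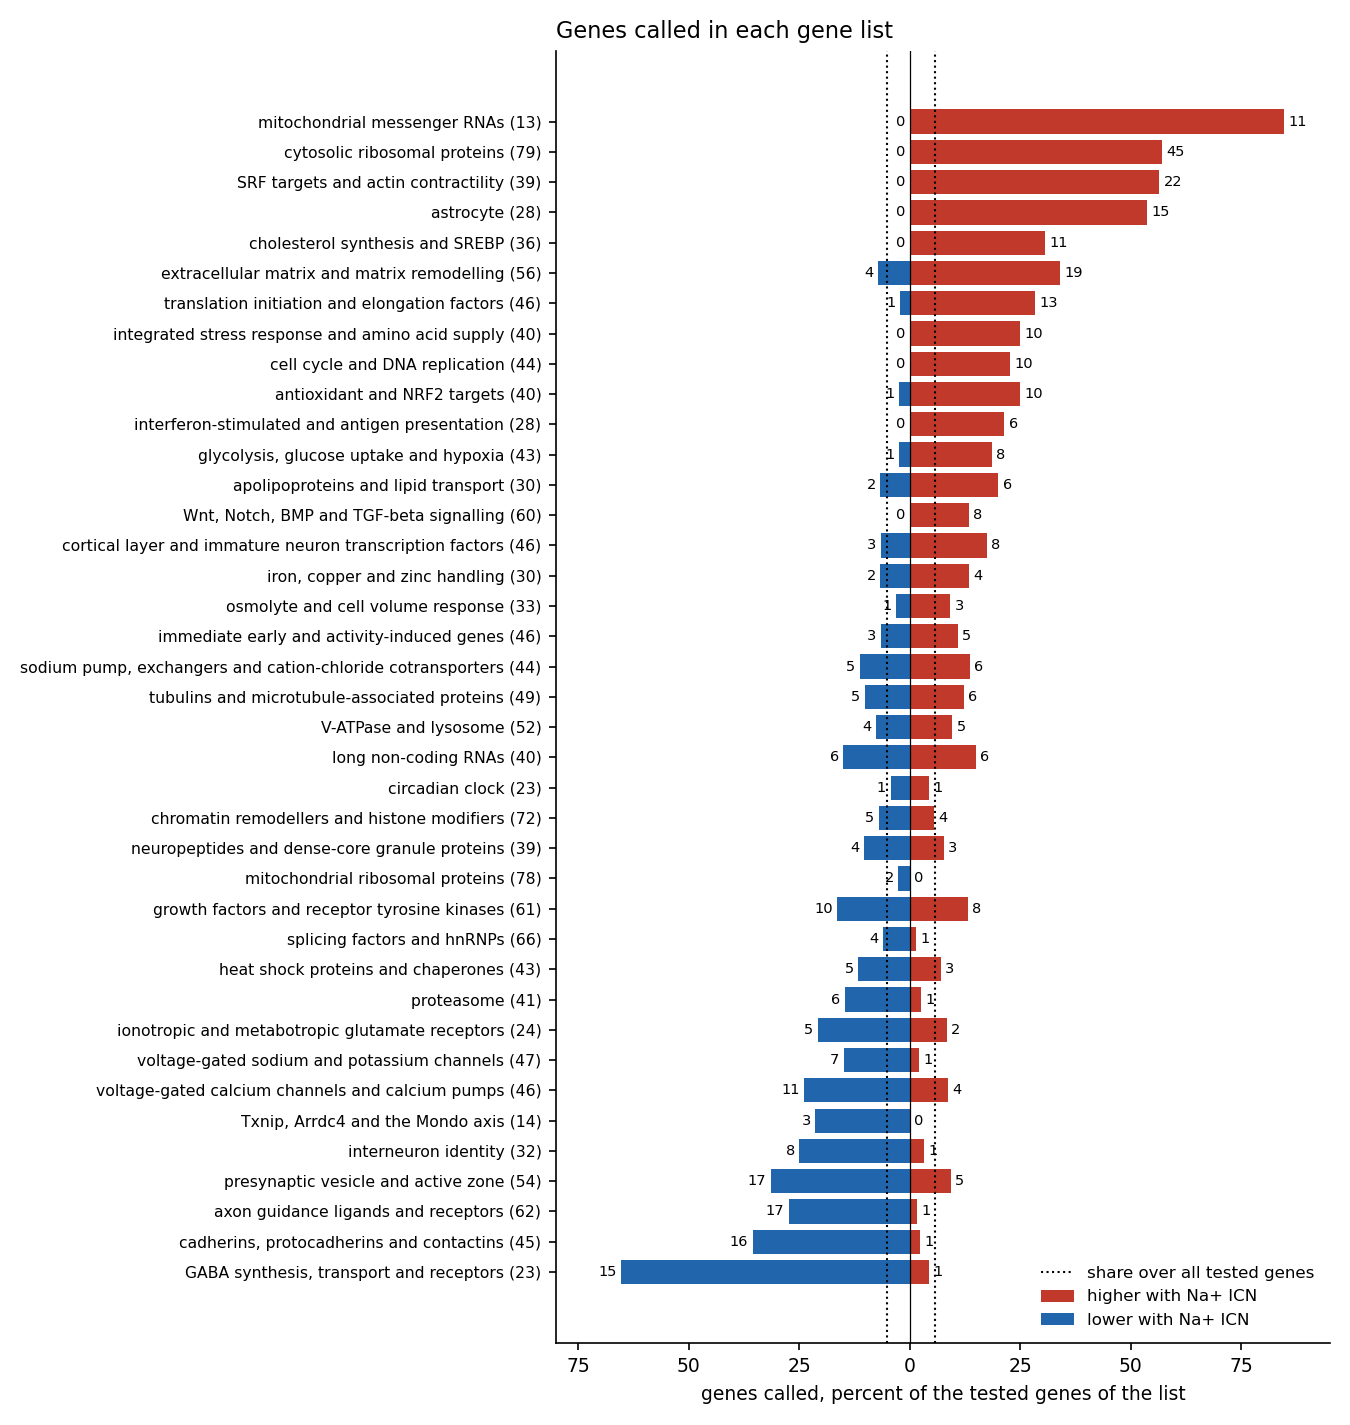
Share of the tested genes of each of 39 lists that were called higher (bars to the right) or lower (bars to the left) with Na+ ICN, in percent, with the number of genes at the end of each bar, the number tested in brackets and the shares over all tested genes (5.63% and 5.22%) as dotted lines. Mitochondrial messenger RNAs, ribosomal proteins, actin genes and astrocyte genes lie at the upper end, and GABA, adhesion, guidance and presynaptic genes at the lower end.

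Genes for handling the ion itself were called in both directions, with a median near 0. Pumps and exchangers of the cell membrane keep Na+ low inside the cell and use its gradient to move other ions. Over 44 pumps, exchangers and cotransporters 6 rose and 5 fell (median log2 fold change 0.0055, below 0 without PA replicate 3 or Na+ ICN replicate 1 or 3), the sodium-calcium exchangers Slc24a4 (log2 0.54, SE 0.11) up and Slc8a1 (log2 -0.17, SE 0.029) and Slc24a3 (log2 -0.19, SE 0.059) down. Atp1b2, a pump subunit known from glia, measured 109, 109 and 108 CPM in PA and 125, 135 and 125 CPM with Na+ ICN (log2 fold change 0.24, SE 0.041, edgeR adjusted p = 4.86e-05), and the groups did not overlap. The number that fell was 2 without PA replicate 1, 3 without PA replicate 2 and 1 without Na+ ICN replicate 2.

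Of 33 genes of the osmotic and cell volume response 3 rose (9.09%) and 1 fell (3.03%), with a median log2 fold change of 0.031. Over all genes tested 5.63% rose and 5.22% fell. Nfat5, the transcription factor of hypertonic stress, stood at 62.98, 75.9 and 65.9 CPM in PA and 55.6, 62.5 and 71.4 CPM with Na+ ICN, overlapping ranges (log2 fold change -0.11, SE 0.088, edgeR adjusted p = 0.519). Its osmolyte carriers Slc6a6 (log2 fold change -0.014, SE 0.032, edgeR adjusted p = 0.842) and Slc5a3 (log2 fold change 0.10, SE 0.066, edgeR adjusted p = 0.361) did not pass, and its target Akr1b3, which makes sorbitol, fell (log2 fold change -0.27, SE 0.069, edgeR adjusted p = 0.00539), a call lost without PA replicate 1 or Na+ ICN replicate 1 (edgeR adjusted p = 0.0659 and 0.0555). The kinase Sgk1, induced by salt in kidney, measured 41.6, 39.5 and 37.4 CPM and 39.7, 34.9 and 40.02 CPM (log2 fold change -0.046, SE 0.071, edgeR adjusted p = 0.763). The 3 that rose were Tsc22d3 (log2 0.50, SE 0.092), Tsc22d4 (log2 0.42, SE 0.1) and the chloride-sensing kinase Wnk1 (log2 0.16, SE 0.036).

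Txnip had the deepest fall of the named genes. It encodes an arrestin-like protein that restrains glucose uptake, and the Mondo transcription factors drive it, and its relative Arrdc4, when sugar phosphates are plentiful. Txnip stood at 10.6, 15.1 and 10.4 CPM in PA and 3.61, 5.72 and 4.16 CPM with Na+ ICN (log2 fold change -1.42, SE 0.18, edgeR adjusted p = 9.37e-08), and Arrdc4 at 31.9, 30.2 and 30.7 CPM and 21.1, 17.7 and 21.4 CPM (log2 fold change -0.62, SE 0.088, edgeR adjusted p = 1.2e-06). For both the ranges were well apart. Of the 14 tested genes of this axis 3 fell, the third being Mxd4, whose groups overlapped and whose call was lost in DESeq2 (adjusted p = 0.0708), with upper-quartile scaling (edgeR adjusted p = 0.0645) and without PA replicate 1 or 3 or Na+ ICN replicate 1 or 3 (edgeR adjusted p = 0.223, 0.203, 0.185 and 0.12), and none rose. The Txnip promoter (chr3:96557707-96558006, + strand, RefSeq GRCm38.p6) is shown because it holds a carbohydrate response element, in capitals.
Txnip: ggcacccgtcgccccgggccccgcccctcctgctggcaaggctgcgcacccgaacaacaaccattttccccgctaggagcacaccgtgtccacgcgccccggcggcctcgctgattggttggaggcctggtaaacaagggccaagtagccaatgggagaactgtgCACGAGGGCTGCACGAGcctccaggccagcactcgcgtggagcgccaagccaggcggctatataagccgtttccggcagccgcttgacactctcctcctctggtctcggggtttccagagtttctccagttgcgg
The letters searched were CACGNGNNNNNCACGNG, on both strands, and the match began 85 bases before the start. They were found in 16 of 32851 windows (0.0487%), and the Arrdc4 and Mxd4 windows held no match to these letters.

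Of 43 genes of glycolysis, glucose uptake and hypoxia 8 rose and 1 fell (median log2 fold change 0.057). Vegfa, the angiogenic factor induced by low oxygen, went from 52.5, 45.9 and 47.05 CPM to 68.996, 71.7 and 63.3 CPM (log2 fold change 0.49, SE 0.06, edgeR adjusted p = 5.94e-08), and the neuronal enolase Eno2 from 110.1, 109 and 111 CPM to 137, 142 and 128 CPM (log2 fold change 0.30, SE 0.042, edgeR adjusted p = 5.95e-07). The groups did not overlap for either. Ndrg1, another hypoxia-induced gene, moved the other way, from 104, 92.2 and 101 CPM to 81.03, 77.6 and 83.3 CPM (log2 fold change -0.29, SE 0.051, edgeR adjusted p = 5.17e-05). Among 40 antioxidant genes 10 rose, led by the ferritin chain Ftl1 (log2 0.21, SE 0.026) and the glutathione transferases Gsta4 (log2 0.65, SE 0.11) and Gstm1 (log2 0.35, SE 0.061), and the mitochondrial dismutase Sod2 fell (log2 -0.18, SE 0.043). That number was 4 without Na+ ICN replicate 2 and 5 without any one PA library. The metallothioneins Mt1 (log2 0.45, SE 0.081) and Mt2 (log2 0.50, SE 0.078) rose, among 4 higher and 2 lower of 30 metal-handling genes; of the 2 lower, 1 was left without PA replicate 2 or Na+ ICN replicate 1 and none without PA replicate 3.

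Protein breakdown changed in small steps. Of 41 proteasome genes 6 fell (14.6%) and 1, the interferon-induced Psme1, rose (median log2 fold change −0.058). Psmd1 went from 241, 231 and 244 CPM to 221, 216 and 212 CPM (log2 fold change -0.14, SE 0.034, edgeR adjusted p = 0.00334). The number that fell was 1 without PA replicate 1 or 3, 3 without Na+ ICN replicate 2, and 2 without Na+ ICN replicate 3 or under upper-quartile scaling, and Psme1 was not called without PA replicate 1 or 3 or Na+ ICN replicate 1 or 2. In the lysosome list 5 of 52 rose, such as the hydrolase Hexa (log2 0.45, SE 0.082) and Lamp2 (log2 0.27, SE 0.059), with 3 risen without PA replicate 3, and 4 fell, all subunits of the proton pump, led by Atp6v1a (log2 fold change -0.16, SE 0.031, edgeR adjusted p = 0.000251). That was 9.62% higher and 7.69% lower, against 5.63% and 5.22% over all genes tested. The list median was −0.033, above 0 without Na+ ICN replicate 3, and nothing is read from these counts.

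Neuronal activity genes did not move as a group. Fos, the immediate early factor used as a mark of firing, measured 31.3, 28.2 and 31.8 CPM in PA and 31.4, 31.6 and 31.4 CPM with Na+ ICN (log2 fold change 0.045, SE 0.073, edgeR adjusted p = 0.774), and Bdnf, the activity-induced neurotrophin, 43.3, 40.1 and 43.9 CPM and 40.6, 35.5 and 39.9 CPM (log2 fold change -0.13, SE 0.067, edgeR adjusted p = 0.214). In both the ranges overlapped. Over 46 immediate early and activity-induced genes 5 rose and 3 fell (median log2 fold change 0.018, or −0.011 without PA replicate 2). That was 10.9% higher and 6.52% lower, against 5.63% and 5.22% over all genes tested. Jund (log2 0.40, SE 0.047), Npas4 (log2 0.26, SE 0.067) and the growth-promoting Nrn1 (log2 0.47, SE 0.082) rose, while Rgs4, a brake on G protein signalling, went from 214, 189.8 and 223 CPM to 171, 159 and 165 CPM (log2 fold change -0.34, SE 0.044, edgeR adjusted p = 2.94e-06) and Fosl2 from 217, 202 and 217 CPM to 189, 172 and 184 CPM (log2 fold change -0.22, SE 0.037, edgeR adjusted p = 2.17e-05).

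Several transcription factors of cortical layers and young neurons rose, and Mef2c fell. Mef2c, which controls synapse number in maturing cortical neurons, measured 759, 779.8 and 766 CPM in PA and 635, 631 and 644 CPM with Na+ ICN (log2 fold change -0.27, SE 0.026, edgeR adjusted p = 1.08e-10), and Sox11, a factor of newborn neurons, 611, 653 and 636 CPM and 708, 740.1 and 733 CPM (log2 fold change 0.20, SE 0.028, edgeR adjusted p = 1.29e-06). Both shifts exceeded the replicate spread. Sox4 (log2 0.11, SE 0.026), Pou3f2 (log2 0.24, SE 0.049) and Foxp4 (log2 0.34, SE 0.056) rose, and Mef2d (log2 -0.13, SE 0.038) and Rorb (log2 -0.23, SE 0.063) fell. Over the list 8 of 46 rose and 3 fell (median log2 fold change 0.011), with 1 lower without PA replicate 2. Rorb was not called without PA replicate 2 (edgeR adjusted p = 0.0667) or Na+ ICN replicate 2 (edgeR adjusted p = 0.0808).

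Microtubule genes moved both ways. The tubulin Tubb2b of migrating neurons went from 3915, 3827 and 3936 CPM to 4403, 4247 and 4127 CPM (log2 fold change 0.13, SE 0.024, edgeR adjusted p = 0.00015) and Tuba1a (log2 0.077, SE 0.021) and Stmn4 (log2 0.14, SE 0.029) rose, while Map1a (log2 -0.19, SE 0.032), Map9 (log2 -0.19, SE 0.032) and the mature-brain tubulin Tubb4a (log2 -0.14, SE 0.033) fell, giving 6 higher and 5 lower of 49, or 3 higher without PA replicate 2. Tubb3, the common neuronal marker, measured 1977, 1913 and 1989 CPM and 2038, 1893 and 1868 CPM (log2 fold change -0.02, SE 0.028, edgeR adjusted p = 0.735), and Map2, of dendrites, 1728, 1802 and 1787 CPM and 1704, 1692 and 1756 CPM (log2 fold change -0.046, SE 0.024, edgeR adjusted p = 0.249). Neither passed. Tubb2b was just missed by limma voom (adjusted p = 0.056).

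Growth factor genes moved both ways, 8 of 61 higher and 10 lower (median log2 fold change 0.064). Igfbp2, a binding protein of insulin-like growth factors, went from 99.9, 95.3 and 93.7 CPM to 131, 125 and 124 CPM (log2 fold change 0.40, SE 0.045, edgeR adjusted p = 6.22e-09), and Fgfr1 (log2 0.20, SE 0.049) and midkine Mdk (log2 0.30, SE 0.08) rose with it. Among the 10 that fell, Gfra1, a co-receptor of GDNF, went from 24.6, 22.8 and 26.3 CPM to 18.2, 13.8 and 17.7 CPM (log2 fold change -0.57, SE 0.096, edgeR adjusted p = 3.33e-05), and Kit (log2 -0.31, SE 0.055), Met (log2 -0.24, SE 0.041), Erbb4 (log2 -0.19, SE 0.043), Ntrk2 (log2 -0.095, SE 0.028) and Ntrk3 (log2 -0.11, SE 0.036) fell by less. Leaving out PA replicate 3 or Na+ ICN replicate 2 left 3 higher and 6 lower, and leaving out PA replicate 1 or Na+ ICN replicate 3 left 5 higher.

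Among long non-coding RNAs 6 of 40 rose and 6 fell. Rian, a maternally expressed RNA of the imprinted Dlk1-Dio3 region, went from 460.3, 453 and 449.9 CPM to 351, 339 and 372 CPM (log2 fold change -0.36, SE 0.031, edgeR adjusted p = 5.14e-12), and Norad (log2 -0.14, SE 0.027) fell, while Neat1 rose from 3.32, 2.96 and 4.20 CPM to 4.65, 8.58 and 7.73 CPM (log2 fold change 0.99, SE 0.19, edgeR adjusted p = 0.000274) and Pvt1 from 8.38, 8.93 and 10.3 CPM to 13.2, 13.5 and 16.2 CPM. Neat1 had 1 Na+ ICN library near the PA range. Without PA replicate 3 the number that rose was 3. Antigen presentation and interferon genes gave 6 higher and none lower of 28 (median log2 fold change 0.36), H2-K1 (log2 fold change 0.84, SE 0.14, edgeR adjusted p = 1.61e-05) first among them, with 3 higher without PA replicate 1 or 3; H2-K1 and H2-D1 have close copies and their counts are uncertain.

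Lists of general nuclear functions gave few calls. Of 72 chromatin regulators 4 rose and 5 fell, Chd2 (log2 0.34, SE 0.049) and Smarca2 (log2 0.18, SE 0.03) higher and Kdm3b (log2 -0.20, SE 0.044) and Chd5 (log2 -0.13, SE 0.031) lower; 2 rose without PA replicate 2, 3 fell without PA replicate 3, and 9 fell with a filter of 1 CPM in 3 libraries or with the replicate block. Of 66 splicing factors 1 rose and 4 fell, with upper-quartile scaling 5 rose and 2 fell, without PA replicate 2 the numbers were 2 and 1, and 2 fell without PA replicate 1, PA replicate 3 or Na+ ICN replicate 2. Of 23 clock genes 1, Cry2, rose and 1, Rorb, fell, and without Na+ ICN replicate 2 neither was called. The shares over all genes were 5.63% higher and 5.22% lower, and with so few calls nothing is read from these lists.

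The direction of change went with the span of the gene, the distance from its start to its end with introns (GENCODE vM21, covering 93.9% of the tested genes). In the quintile of tested genes with the shortest span, up to 7885 bases, 9.05% were higher and 2.49% lower; in the quintile with the longest, from 79131 bases, 5.33% were higher and 10.5% lower. Without mitochondrial and ribosomal protein genes the shortest quintile still held 7.36% higher and 2.55% lower. Among genes in the highest quintile of level 30.8% of the shortest rose, 21.1% without mitochondrial and ribosomal protein genes, and 18.6% of the longest fell. At low levels the longest did not fall more often than they rose. In the lowest quintile of level 0.59% of them were higher and 0.59% lower, and in the next 5.30% and 3.26%. Span also went with level, with a median of 12.2 CPM in the shortest quintile and 37.6 CPM in the longest. Leaving out any library kept a higher share of rises than falls in the shortest quintile and the reverse in the longest, with 3.33 to 5.02% higher and 7.05 to 9.62% lower in the latter. Direction went with other gene traits as well. By length of the longest transcript, 6.51% were higher and 1.86% lower in the shortest quintile, and 5.41% and 11.1% in the longest. By GC content of that transcript, 3.93% were higher and 6.14% lower in the lowest quintile, and 7.54% and 4.35% in the highest. These traits were not told apart from span. Many of the neuronal adhesion, channel and synaptic genes named above are long, and the part of span in their fall was not tested.

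**Figure D5:**
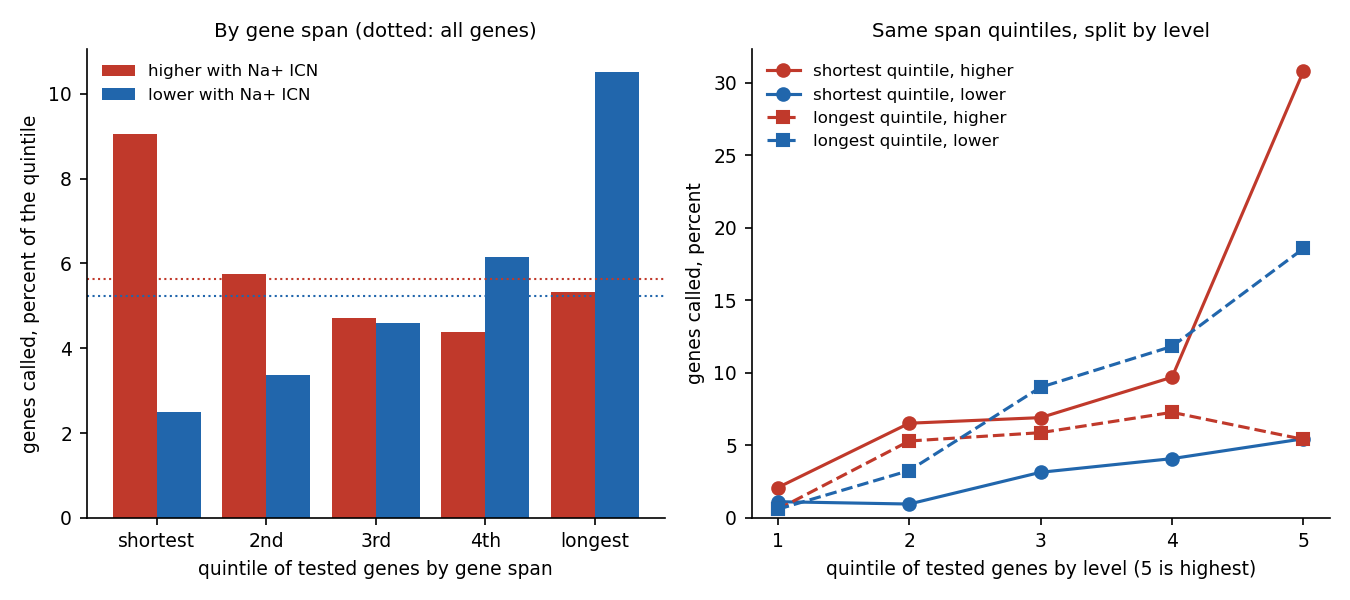
Share of genes called higher or lower with Na+ ICN, in percent, by quintile of gene span (left, with the shares over all genes dotted) and, for the shortest and longest quintiles, by quintile of level (right). In the shortest quintile 9.05% are higher and 2.49% lower, and in the longest 5.33% and 10.5%.

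Set directly against K+ ICN, which shares the Na+ ICN libraries with the comparison above, 999 genes (6.58%) differed from Na+ ICN. Of 34 genes named by the rules on p, fold and counts, 16 differed. Rgs4 and Fos show how values could part: Rgs4 stood at 284, 285 and 282 CPM with K+ ICN, above PA, where Na+ ICN was below it, and Fos at 51.9, 49.5 and 53.6 CPM. Fat3, lowered with Na+ ICN, measured 222, 242 and 239.6 CPM with K+ ICN. For Txnip, by contrast, K+ ICN libraries held 5.03, 4.89 and 3.78 CPM, and the direct difference did not pass (edgeR adjusted p = 0.971).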

How the data were processed

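Gene counts were deposited by the authors as whole numbers for 40773 gene symbols. The submitters' processing notes name GRCm38 (mm10) and the tools RSEM, STAR and Trim Galore; how the counts were made, with which annotation and which strand setting, is not given in the sources used here. Counts of genes with close copies or overlaps are therefore uncertain, and intervals given as SE cover the spread between these libraries.

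Counts were tested with edgeR 4.0.16 (R 4.3.3). Genes kept by filterByExpr at a count minimum of 10, 15183 in all, were scaled by TMM and fitted with a robust quasi-likelihood model over all 9 libraries, which share 1 estimate of spread. Calls are Benjamini-Hochberg adjusted p under 0.05 over all genes tested, and CPM were computed from the counts. Replicate pairs of the 2 groups differed by more than counting noise (chi-square per degree of freedom 3.44 to 4.19), so each library was kept as a replicate.

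The comparison, the 39 gene lists, the 11 marker lists and the tests were chosen with earlier results of these data known; 1702 symbols were listed and 2 were not in the table. Lists are described by counts and medians beside all genes, with no test of a list and no matching for level. Named genes are the 10 smallest p, 8 largest folds and 5 largest CPM changes in each direction, among called genes averaging 5 CPM or more whose groups did not overlap and that were not predicted genes; then, with overlap allowed, up to 4 called genes a list with the smallest p, and 12 fixed genes, some of which are not reported here. Other list members are named where they make up a count, and the clustered protocadherins, Tenm1's place beside the adhesion list and the split by gene span were chosen after values were seen. The test was tried on simulated counts in which 200 well-counted genes were changed. It called 46.3% of those changed 1.2-fold, 76.1% at 1.5-fold and 90.9% at 2-fold, and 7.79% of its calls were false. Many changes near 1.2-fold would therefore be missed. Alternatives were DESeq2 1.42.0, limma voom (limma 3.58.1), other scalings, filters and fits, a 1.2-fold threshold, and leaving out each library. Promoters and gene positions are from RefSeq GRCm38.p6.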

Additional observations from a re-analysis of the deposited data

Results flagged for a closer look

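Of 34 genes named for their p, fold or CPM change with Na+ ICN, 16 also differed between K+ ICN and Na+ ICN at the same time and dose (edgeR adjusted p under 0.05), a difference tested directly and not through PA. Both comparisons use the same Na+ ICN libraries, so a chance deviation of those would enter both. Values below are log2 differences, K+ ICN minus Na+ ICN.

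Mitochondrial transcripts were lower with K+ ICN than with Na+ ICN, by −0.1948 for mt-Co3 (adjusted p = 1.14e-08), −0.2983 for mt-Nd3 (adjusted p = 1.35e-09), −0.1123 for mt-Co2, −0.08319 for mt-Nd1 and −0.07182 for mt-Co1. Mt-Nd3 averaged 312 CPM in PA, 418 CPM with Na+ ICN and 340.2 CPM with K+ ICN. The astrocyte genes Apoe (−0.282) and Sparcl1 (−0.3694) and the nuclear regulators Zmynd8 (−0.2467) and Zfp532 (−0.1368) were lower with K+ ICN too, though all 4 had a K+ ICN mean above that of PA.

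Among genes that fell with Na+ ICN, 6 were higher with K+ ICN. Fat3 differed by 0.4223 (adjusted p = 1.4e-11), Gad1 by 0.2509 (adjusted p = 8.14e-07), Reln by 0.2258, Rian by 0.2388, Spp1 by 0.5045 and Tenm1 by 0.1379. Fat3 averaged 230.5 CPM in PA, 175 CPM with Na+ ICN and 234 CPM with K+ ICN. Mef2c was the exception, lower again with K+ ICN by −0.3049 (adjusted p = 6.01e-12), at 768 CPM in PA, 637 CPM with Na+ ICN and 515 CPM with K+ ICN.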

How the results depend on the processing

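DESeq2, limma voom, DESeq2 size factors, both other filters and a fit to the 6 libraries called 1521 to 1705 genes, and 89.3 to 98.5% of the 1648 reported calls were among them; upper-quartile scaling, which moved the median of all genes to 0.025, called 1594 (1042 higher, 552 lower) and kept 85.4%. Leaving out a library called 1079 to 1376 genes (585 to 716 higher, 494 to 660 lower), with the lowest counts without PA replicate 3 (1079) and Na+ ICN replicate 2 (1089). Against a 1.2-fold minimum 92 genes passed, 71 higher and 21 lower, including 42 of the 164 named; this test asks for a larger change by construction. Over the other settings, 2220 of 2296 values of named genes kept their call and direction, 72 lost the call and 4 changed sign, all of the latter in genes not called to begin with. Without a single library Fos ranged from −0.005344 to 0.07909, Sgk1 from −0.0852 to 0.01428 and Tubb3 from −0.05966 to 0.003906, and upper-quartile scaling gave Tubb3 0.00101; the cause was not tested. Of 1092 counts of lists under other settings, 964 stayed within 1.5 times the reported count. Same-numbered PA and Na+ ICN samples deviated together very little over all genes (correlations 0.040, 0.025 and 0.0097). Such correlations cannot show whether some genes share a replicate effect, and the reported fit leaves the samples unpaired. With the replicate block 1825 genes were called, 930 higher and 895 lower, and 18 in place of 16 named genes differed between K+ ICN and Na+ ICN. At this depth genes near 1 CPM could be called only for large folds.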
